A study of Mus musculus with 2 samples.

Results

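Amino acids enter mammalian cells through carriers of the solute carrier (SLC) families, and 6 of these families were described here: Slc1a (acidic and neutral amino acids), Slc3a (the heavy chains of paired carriers), Slc7a (their light chains and the cationic carriers), Slc36a (proton-coupled carriers), Slc38a (sodium-coupled neutral carriers) and Slc43a. Every row of the deposited table whose symbol is one of these family names followed by a number was taken, a rule that reads symbols alone, which gave 42 genes of 55468 rows. Of the 42 genes, 17 reached 1 FPKM in one library or both and are called measured, and 25 did not pass that level. FPKM is the number of sequenced fragments scaled by transcript length and library size.

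The series compared RNA of KPC2 cells, a mouse pancreatic cancer line, between untreated wild type cells and gemcitabine-resistant cells under long-term exposure to the drug at 260 ng/mL. Gemcitabine is a nucleoside analogue given to patients with pancreatic cancer. Both were grown in DMEM with 10% fetal bovine serum, and 1 library was sequenced per group. With no replicates, each difference below describes these 2 libraries and carries no test. The drug was in the medium of the resistant cells alone, so its presence and a lasting state of those cells cannot be told apart. As RNA came from whole cultures, fewer cells that express a gene and less of its RNA per cell cannot be told apart either.

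Slc7a light chains such as LAT1 and xCT reach the cell surface only when bound to a heavy chain, CD98, which Slc3a2 encodes. Cystine brought in by xCT, encoded by Slc7a11, feeds glutathione synthesis, and tumour cells of the pancreas are known to depend on it. Many of these genes are known targets of ATF4, a transcription factor whose translation rises when amino acids are short or the endoplasmic reticulum is stressed, and Slc7a11 is also a known target of NRF2.

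The start-site regions of 4 members are shown because their letters differ in a motif that ATF4 and C/EBP factors bind, TGATGNAA, searched on both strands. The stretches run 5′ to 3′ along the gene's own strand from 150 bases before to 25 bases after a RefSeq start site (GRCm38.p6), and capitals mark the motif. They lie on the minus strand at chr3:50443589-50443763 (Slc7a11), chr11:20332689-20332863 (Slc1a4), chr19:8713873-8714047 (Slc3a2) and chr14:54417920-54418094 (Slc7a7).
Slc7a11: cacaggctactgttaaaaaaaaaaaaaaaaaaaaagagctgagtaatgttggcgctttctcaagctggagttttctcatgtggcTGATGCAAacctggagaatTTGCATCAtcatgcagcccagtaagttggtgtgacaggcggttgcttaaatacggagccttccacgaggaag
Slc1a4: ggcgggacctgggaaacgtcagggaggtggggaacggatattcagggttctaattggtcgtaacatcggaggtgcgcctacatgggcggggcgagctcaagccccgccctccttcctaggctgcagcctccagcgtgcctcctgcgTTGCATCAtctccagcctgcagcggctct
Slc3a2: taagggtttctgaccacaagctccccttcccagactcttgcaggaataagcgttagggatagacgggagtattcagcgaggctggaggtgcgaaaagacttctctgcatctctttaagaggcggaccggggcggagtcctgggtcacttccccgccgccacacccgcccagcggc
Slc7a7: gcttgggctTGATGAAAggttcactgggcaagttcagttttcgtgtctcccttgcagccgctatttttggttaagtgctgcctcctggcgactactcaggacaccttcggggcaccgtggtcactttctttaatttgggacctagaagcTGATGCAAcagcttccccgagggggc

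Resistant cells had 4 members that stood at least 2-fold above wild type, measured as log2 of FPKM + 1: the cystine carrier gene Slc7a11, the large neutral amino acid carrier gene Slc7a5, the neutral amino acid exchanger gene Slc1a4 and the heavy chain gene Slc3a2. Just 1 gene, the glutamine carrier gene Slc38a3, was at least 2-fold lower, and the other 12 measured members lay within 2-fold. The 4 higher genes are 23.5% of the 17 measured members, where 7.90% of all 12193 measured genes were higher by the same rule, and the 1 lower gene is 5.88%, where 8.37% of all measured genes were lower. The median log2 ratio of the measured members was 0.06, beside 0.02 over all measured genes, with 9 members above 0 and 8 below. The authors' deposited table gives a test for 18 of the 42 members and calls none of them. It calls 56 genes among all 55468 rows, so few calls would fall in any set of this size. Among the 4 higher genes, the p-values in the authors' deposited table were 0.0222 for Slc7a11, 0.0259 for Slc1a4, 0.0617 for Slc3a2 and 0.725 for Slc7a5, with q-values of 0.861, 0.915, 0.998 and 0.998.

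**Figure D1:**
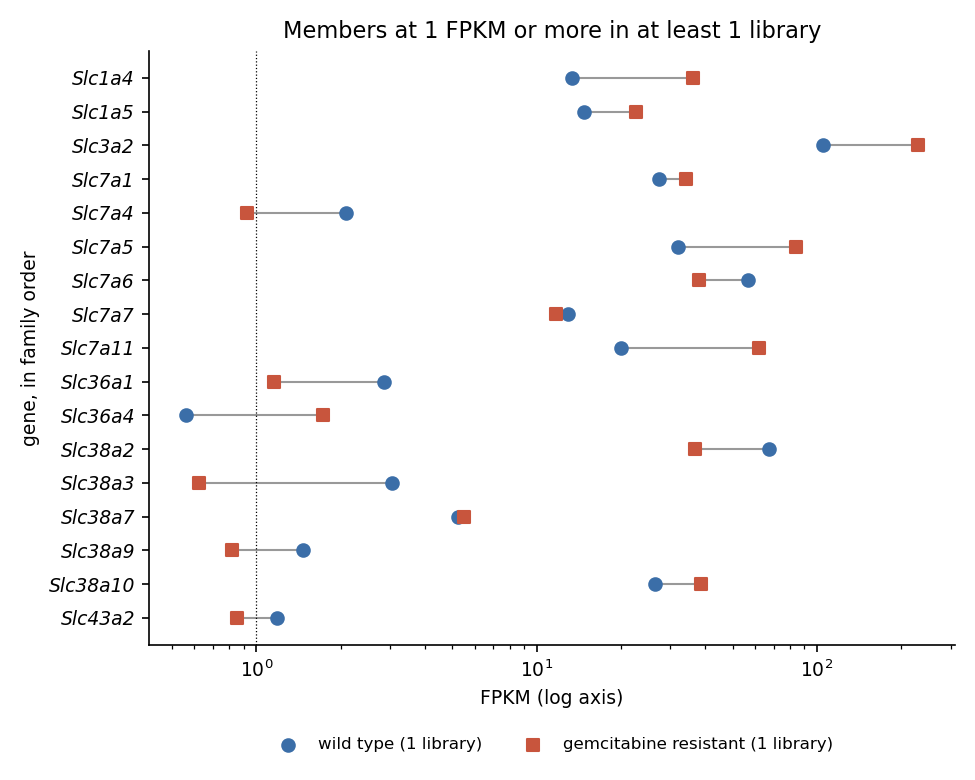
FPKM of the 17 measured members (log axis) in the wild type library (blue circles) and the gemcitabine-resistant library (red squares), with a dotted line at 1 FPKM. Slc7a11, Slc7a5, Slc1a4 and Slc3a2 lie further right in resistant cells, and Slc38a3 falls from 3.06 to 0.62 FPKM.

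Among the heavy chains, Slc3a2 stood at 105.4 FPKM in wild type and 229.7 FPKM in resistant cells, 2.18-fold higher (95% counting interval of the ratio 2.12 to 2.24) and a log2 ratio of 1.12. It had the highest FPKM of all 42 members in both libraries. The ratio was past 2-fold by a small margin, with a log2 ratio of 1.03 when the resistant library was rescaled to the same upper quartile. Slc3a1, the heavy chain of the renal and intestinal cystine carrier, stood at 0.05 FPKM in wild type cells and was listed at 0 in resistant cells. Intervals here cover the counting of fragments in 1 library each and nothing of the spread between cultures.

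Slc7a11, whose product exchanges glutamate for cystine, had the highest log2 ratio of the members, 1.59. It stood at 20.01 FPKM in wild type cells (95% counting interval 19.4 to 20.6) and 62.2 FPKM in resistant cells (61.1 to 63.3), 3.11-fold higher, and 97.2% of all measured genes had a lower log2 ratio. The gene lies at 49892526 to 50443614 on the minus strand of chromosome 3 (GRCm38).

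Slc7a5 encodes LAT1, which brings in leucine and other large neutral amino acids in exchange for glutamine. It stood at 31.8 FPKM in wild type (95% counting interval 30.6 to 33.1) and 84.4 FPKM in resistant cells (82.4 to 86.5), 2.65-fold higher, with a log2 ratio of 1.38. The authors' locus for it spans 4435365 bases of chromosome 8 and is shared with 209 other rows. The 60 measured genes among those rows had a median log2 ratio of 0.04, with 2 at least 2-fold higher and 4 lower.

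The other measured light chains of CD98 stood level or lower in resistant cells. Slc7a6, whose product exchanges cationic for neutral amino acids, stood at 56.9 FPKM in wild type and 37.97 FPKM in resistant cells, a log2 ratio of -0.57. Slc7a7, its close relative that is mutated in lysinuric protein intolerance, stood at 12.9 and 11.7 FPKM, and the counting interval of the ratio, 0.81 to 1.02, holds 1. Slc7a7 shares 232 of its 3315 exonic bases with Oxa1l on the other strand, and the sources used here do not say whether strand was used in counting. Slc7a10, the neuronal light chain, was listed at 0 in both libraries.

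The order of the light chains by FPKM therefore differed between the libraries. In wild type cells it ran Slc7a6, Slc7a5, Slc7a11, Slc7a7, and in resistant cells Slc7a5, Slc7a11, Slc7a6, Slc7a7. Of the summed FPKM of the 6 light chain genes that pair with CD98, Slc7a6 made up 46.8% in wild type and 19.3% in resistant cells. Slc7a5 made up 26.1% and 42.9%, and Slc7a11 16.5% and 31.6%. The light chain sum stood at 121.6 FPKM in wild type and 196.7 FPKM in resistant cells, so the FPKM of Slc3a2 was 0.87 times the sum in wild type and 1.17 times in resistant cells.

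**Figure D2:**
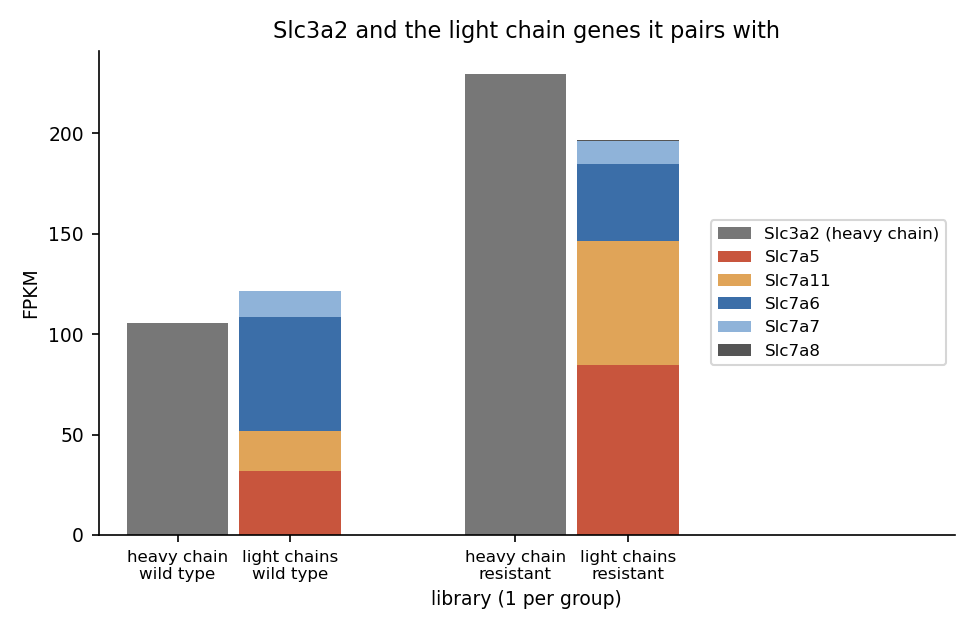
FPKM of Slc3a2 (grey) and of the light chain genes that pair with its product, stacked, in 1 wild type and 1 resistant library. Slc7a6 is the tallest light chain block in wild type cells (56.9 FPKM) and Slc7a5 in resistant cells (84.4 FPKM). Slc7a10 is at 0 and not drawn.

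Among the Slc1a genes, the neutral amino acid exchangers Slc1a4 and Slc1a5 alone were measured. Slc1a4, which encodes ASCT1, a carrier of serine, alanine and cysteine, stood at 13.3 FPKM in wild type (95% counting interval 12.6 to 14.1) and 36.1 FPKM in resistant cells (34.9 to 37.4), 2.71-fold higher, with a log2 ratio of 1.37. Slc1a5, which encodes the glutamine carrier ASCT2, stood at 14.7 and 22.5 FPKM, a log2 ratio of 0.58 and within 2-fold. The levels of the 2 genes were close in wild type cells, and in resistant cells Slc1a4 was the higher one. The 5 high-affinity glutamate carrier genes, Slc1a1, Slc1a2, Slc1a3, Slc1a6 and Slc1a7, summed to 0.08 FPKM in wild type and 0.17 FPKM in resistant cells.

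Of the cationic carriers of the Slc7a family and their relatives, Slc7a1 and Slc7a4 were measured, both within 2-fold. Slc7a1, which encodes the arginine and lysine carrier CAT1, stood at 27.4 FPKM in wild type and 34.2 FPKM in resistant cells, a log2 ratio of 0.31. Slc7a4, a related gene whose substrate is not known, stood at 2.09 and 0.92 FPKM, a log2 ratio of -0.68. Taken as FPKM, that is 2.26-fold lower (95% counting interval 1.68 to 3.07), and at a pseudocount of 0.1 it passed the 2-fold line. Slc7a4 shares 13.3% of its exonic bases with P2rx6 on the other strand.

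Of the 5 measured sodium-coupled carriers of the Slc38a family, Slc38a2, Slc38a3 and Slc38a9 stood lower in resistant cells and Slc38a7 and Slc38a10 higher. Slc38a3, which encodes SNAT3, a carrier of glutamine, asparagine and histidine, stood at 3.06 FPKM in wild type (95% counting interval 2.66 to 3.50) and 0.62 FPKM in resistant cells (0.45 to 0.84), 4.91-fold lower, with a log2 ratio of -1.32. At a pseudocount of 5 its log2 ratio was -0.52, within 2-fold. In the authors' deposited table its p-value of 0.0167 was the lowest of any member, with a q-value of 0.758.

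Slc38a2 encodes SNAT2, which takes up alanine, glutamine and other small neutral amino acids and is known to be raised by amino acid shortage. It stood at 67.6 FPKM in wild type (95% counting interval 66.2 to 69.0) and 36.8 FPKM in resistant cells (35.7 to 37.8), 1.84-fold lower, with a log2 ratio of -0.86. Slc38a2 had the next highest FPKM after Slc3a2 in wild type cells, and in resistant cells it ranked below Slc3a2, Slc7a5, Slc7a11, Slc38a10 and Slc7a6. Slc38a10, a little studied member, stood at 26.4 FPKM in wild type and 38.7 FPKM in resistant cells, a log2 ratio of 0.54.

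The members whose products sit in the lysosome were low in both libraries. Slc38a7, a lysosomal glutamine exporter gene, stood at 5.25 and 5.52 FPKM, and the counting interval of the ratio, 0.91 to 1.21, holds 1. Slc38a9, whose product senses lysosomal arginine for mTORC1, stood at 1.46 FPKM in wild type and 0.82 FPKM in resistant cells, a log2 ratio of -0.44. Slc36a1, which encodes a proton-coupled carrier of small amino acids, stood at 2.84 FPKM in wild type and 1.15 FPKM in resistant cells. Taken as FPKM, Slc36a1 was 2.47-fold lower (95% counting interval 2.01 to 3.04), while its log2 ratio of -0.84 lay within 2-fold.

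Slc36a4, which encodes a high-affinity carrier of proline and tryptophan, went the other way from Slc36a1. It stood at 0.56 FPKM in wild type and 1.73 FPKM in resistant cells, 3.09-fold higher when taken as FPKM (95% counting interval 2.41 to 4.002) and a log2 ratio of 0.81. At a pseudocount of 0.1 Slc36a4 passed the 2-fold line. Slc43a2, which encodes the neutral amino acid carrier LAT4, stood at 1.18 and 0.86 FPKM, a log2 ratio of -0.24. Slc43a2, Slc38a10 and Slc38a9 share 9.18%, 5.72% and 1.09% of their exonic bases with non-coding genes on the other strand.

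**Figure D3:**
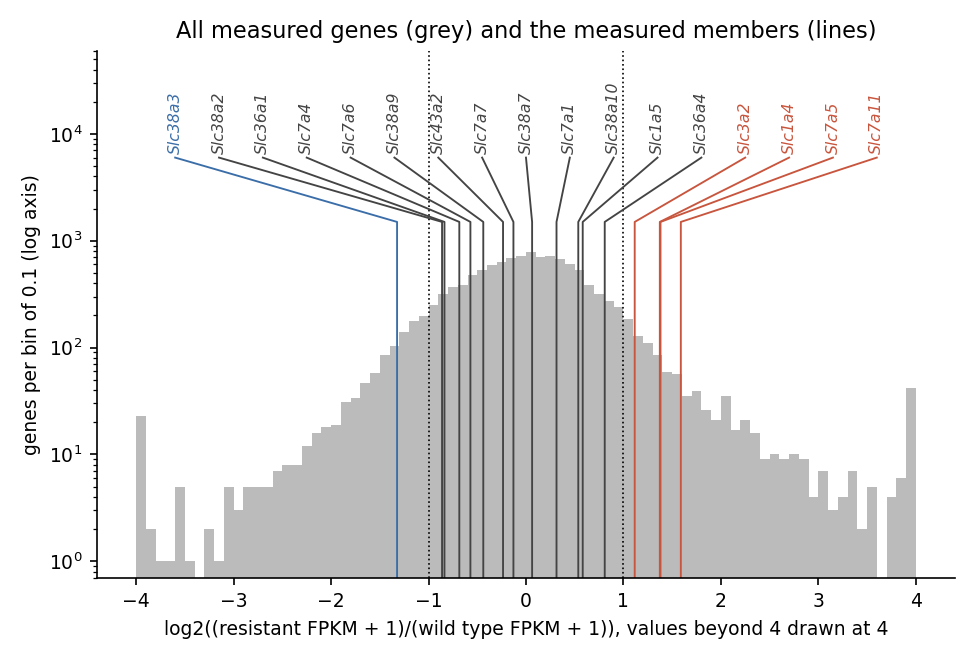
Histogram of the log2 ratio of 12193 measured genes (grey, log axis) with the 17 measured members as lines. Dotted lines mark 2-fold, with 4 members beyond it on the right (red) and Slc38a3 beyond it on the left (blue).

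Summed over all 42 members, FPKM stood at 394.4 in wild type and 608.3 in resistant cells, 1.54 times as high, where the values of the whole table summed to 1.20 times as much in the resistant library. The 10 members at 10 FPKM or more in both libraries made up 95.4% of the sum in wild type and 97.7% in resistant cells. By family, the Slc1a sum was 2.09 times, the Slc3a sum 2.18 times and the Slc7a sum 1.53 times the wild type sum, and the Slc36a, Slc38a and Slc43a sums were 0.85, 0.80 and 0.65 times it. Each of these sums is carried by a few genes, so that of Slc3a is Slc3a2 alone to within 0.05 FPKM.

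Of the 25 members under 1 FPKM in both libraries, 11 were listed at 0 in both: Slc1a6, Slc7a10, Slc7a12, Slc7a13, Slc7a15, Slc36a2, Slc36a3, Slc38a5, Slc38a8, Slc38a11 and Slc43a1. Another 4 were listed at 0 in wild type cells alone, among them the arginine carrier gene Slc7a3 (0.21 FPKM in resistant cells) and Slc38a4 (0.12 FPKM). Slc1a1 and Slc3a1 were listed at 0 in resistant cells alone, and 8 members were above 0 in both libraries. Slc1a1 and Slc3a1 share 31.9% and 26.5% of their exonic bases with protein-coding genes on the other strand. The highest value in this group was 0.92 FPKM, that of Slc38a6 in resistant cells.

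Some of these low members differed by more than the counting of fragments gives. Slc38a1, which encodes the glutamine carrier SNAT1, stood at 0.02 FPKM in wild type, about 2.63 fragments on its longest transcript, and 0.31 FPKM in resistant cells, about 50.7 fragments, a ratio of 19.99 (95% counting interval 6.06 to 116). Slc7a8, the gene of the CD98 light chain LAT2, stood at 0.02 and 0.39 FPKM, about 1.96 and 35.3 fragments, a ratio of 18.6 (4.74 to 164). Slc7a2, the gene of the arginine carrier CAT2, went the other way, at 0.31 FPKM in wild type and 0.01 FPKM in resistant cells, about 56.9 and 2.03 fragments, 27.0-fold lower (7.21 to 223). Slc7a2 shares 6.95% of its exonic bases with a non-coding gene on the other strand. The levels of Slc38a1, Slc7a8 and Slc7a2 remained far below those of the relatives Slc38a2, Slc7a5 and Slc7a1. The ratio intervals of Slc1a2 and Slc43a3 did not hold 1 either. Slc1a2 stood at 0.05 and 0.11 FPKM, a ratio of 2.46 (1.23 to 5.22). Slc43a3 stood at 0.19 FPKM in wild type and 0.04 FPKM in resistant cells, 5.42-fold lower (1.18 to 51.2).

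**Figure D4:**
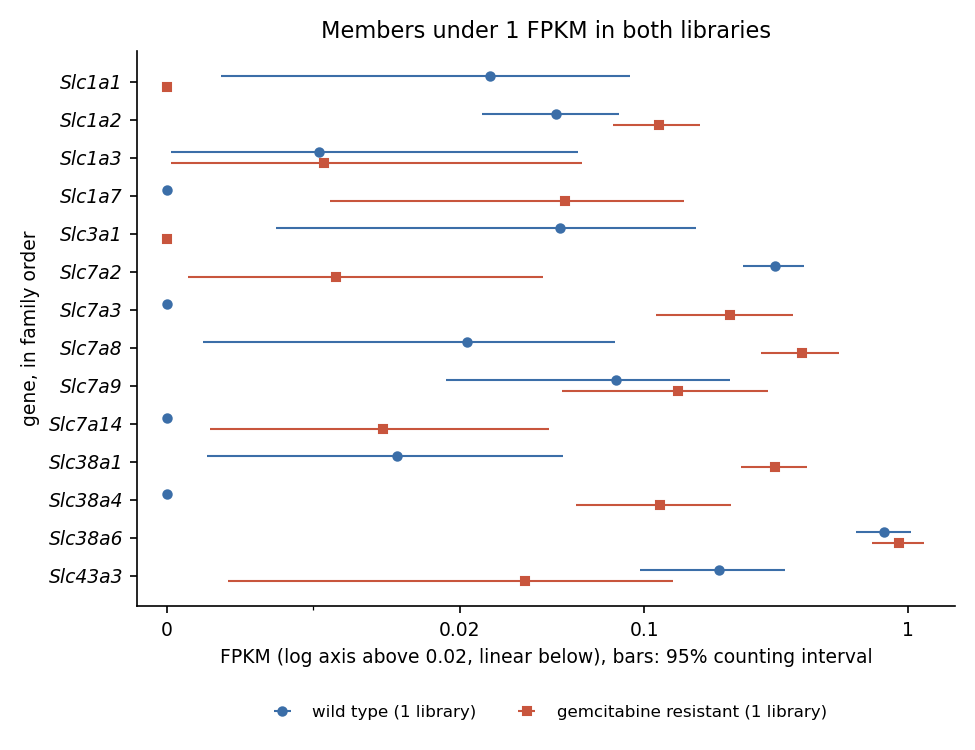
FPKM of the 14 members that were above 0 in at least 1 library and under 1 FPKM in both. Wild type is in blue and resistant in red. Bars are 95% counting intervals, and values of 0 have no bar because no interval was computed for them. The axis is linear below 0.02 and logarithmic above. Slc7a8 and Slc38a1 are higher in resistant cells with intervals that do not meet, and Slc7a2 lower.

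Several members are neighbours in the genome, and neighbours differed widely in level. Slc38a1 and Slc38a2 lie 44478 bases apart on chromosome 15, at 0.02 and 67.6 FPKM in wild type cells, and Slc38a4 on the far side of Slc38a2 was listed at 0. Slc7a7 and Slc7a8 are 304428 bases apart on chromosome 14, at 12.9 and 0.02 FPKM in wild type cells. On chromosome 11, Slc36a1 was measured, while Slc36a2 and Slc36a3 beside it were listed at 0 in both libraries.

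RefSeq start-site windows, from 250 bases before to 50 bases after a start, were found for 31 of the 42 members and 13 of the 17 measured ones. The C/EBP-ATF motif TGATGNAA, of which the stretches printed above hold the copies in capitals, was in a window of 3 members: Slc7a11, Slc1a4 and Slc7a7. Slc7a11 has it at -66 to -59 and, on the opposite strand, at -47 to -40, counting the base before the start as -1. In Slc1a4 it spans the start, from -4 to 4. Slc7a7 also has it, at -141 to -134 and at -1 to 7 of a start that lies outside the span of the GENCODE gene. The copy at -1 to 7 lies at -243 to -236 of another RefSeq start of Slc7a7. The level of Slc7a7 was similar in both libraries. In the Slc3a2 window, whose start lies inside the span of the GENCODE gene, these letters do not occur. Of the 4 members at least 2-fold higher, 3 have a window. Of all 32851 windows of the same length, 3.97% hold this motif. Counted by gene, a window with the motif was found for 36 of 621 genes (5.80%) with at least 2-fold more FPKM + 1 in resistant cells, 178 of 7376 genes (2.41%) within 2-fold and 14 of 700 genes at least 2-fold lower. These shares are descriptions, and no binding was measured.

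The core of the antioxidant response element, TGACNNNGC, which NRF2 binds, was in a window of 4 measured members, Slc7a1, Slc7a6, Slc36a1 and Slc38a2, and of Slc43a1. It differs from TGATGNAA at the fourth letter, and no copies of the 2 motifs overlapped in a member's window. None of the 4 measured ones was at least 2-fold higher, too few genes for a share to be read, and Slc43a1 was listed at 0 in both libraries. Of all windows, 12.4% hold these letters. Counted by gene, a window with them was found for 102 of 621 genes (16.4%) at least 2-fold higher. The same held for 1261 of 7376 genes (17.1%) within 2-fold and 103 of 700 genes (14.7%) at least 2-fold lower. These shares too are descriptions.

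Of the regulators and partners listed with the members, Atf4 stood at 164.4 FPKM in wild type and 392.4 FPKM in resistant cells, and Ddit3, which encodes the stress factor CHOP, at 12.2 and 186.6 FPKM. Nfe2l2, which encodes NRF2, was lower, at 149.8 FPKM in wild type and 43.7 FPKM in resistant cells, a log2 ratio of -1.76. Bsg, Cd44, Myc, Nedd4, Nedd4l, Rnf5 and Trp53 lay within 2-fold. Cd44, whose splice form is known to hold xCT at the cell surface, stood at 99.4 and 118 FPKM. Slc29a1, the nucleoside carrier that brings gemcitabine into cells, was the other lower gene of this list of 11, at 83.04 and 31.5 FPKM. Of the 11, 2 were at least 2-fold higher and 2 lower (18.2% each way, beside 7.90% and 8.37% of all measured genes). This list too was chosen with earlier results of these data known.

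Other plasma membrane transporters of amino acids, creatine and small peptides were measured for 4 of 17 genes, too few for a share to be read, and 1 of them was at least 2-fold higher. That was the glycine carrier gene Slc6a9, at 10.8 FPKM in wild type and 29.8 FPKM in resistant cells. The taurine carrier gene Slc6a6 stood at 124.9 and 91.8 FPKM. Lysosomal and vesicular carriers were measured for 4 genes, all within 2-fold, with a median log2 ratio of -0.41. Mitochondrial amino acid carriers had 1 of 9 measured genes at least 2-fold lower, the glycine carrier gene Slc25a38 (4.42 and 1.59 FPKM, 11.1% beside 8.37% of all measured genes), none 2-fold higher, and a median of -0.48. Slc25a13, which encodes an aspartate and glutamate carrier, stood at 13.4 and 27.3 FPKM, a log2 ratio of 0.98.

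A list of amino acid enzymes, which holds Phgdh and Psat1 of serine synthesis besides enzymes that act on carried amino acids, had 16 of 19 measured genes with a log2 ratio above 0. Of the 19, 5 were at least 2-fold higher (26.3%, beside 7.90% of all measured genes) and 1 was lower (5.26%, beside 8.37%). The median log2 ratio was 0.68, beside 0.02 over all measured genes. The list was chosen with earlier results of these data known, so its shares and median are descriptions and no independent result. Asparagine synthetase, Asns, stood at 57.4 FPKM in wild type and 321.7 FPKM in resistant cells. The proline synthesis genes Pycr1 (2.41 and 15.8 FPKM) and Aldh18a1 (26.2 and 63.7 FPKM) were higher, as were Phgdh of serine synthesis (168.1 and 400.1 FPKM) and, named after its values were seen, the ornithine aminotransferase gene Oat (21.1 and 44.2 FPKM). The branched-chain aminotransferase gene Bcat1 stood at 2.35 FPKM in wild type cells and was listed at 0 in resistant cells. Of the genes between cystine and glutathione, Gclc stood at 75.5 and 50.2 FPKM, Gclm at 144.4 and 193.2 FPKM and Gss at 27.2 and 38.4 FPKM, all within 2-fold.

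In the amino acid sensing list, 2 of 31 measured genes were at least 2-fold higher and 2 were lower (6.45% each way), shares near the 7.90% and 8.37% of all measured genes, and the median log2 ratio was 0.14. The higher ones were Atf4 and the leucine sensor gene Sesn2 (2.12 and 5.39 FPKM). The lower ones were Mlst8, a subunit of the mTOR complexes (5.36 and 1.70 FPKM), and Flcn, which encodes folliculin, a regulator of the Rag GTPases at the lysosome (5.80 and 1.96 FPKM). The kinase genes Mtor (5.83 and 9.19 FPKM) and Eif2ak4, which encodes GCN2 (2.79 and 3.14 FPKM), lay within 2-fold.

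**Figure D5:**
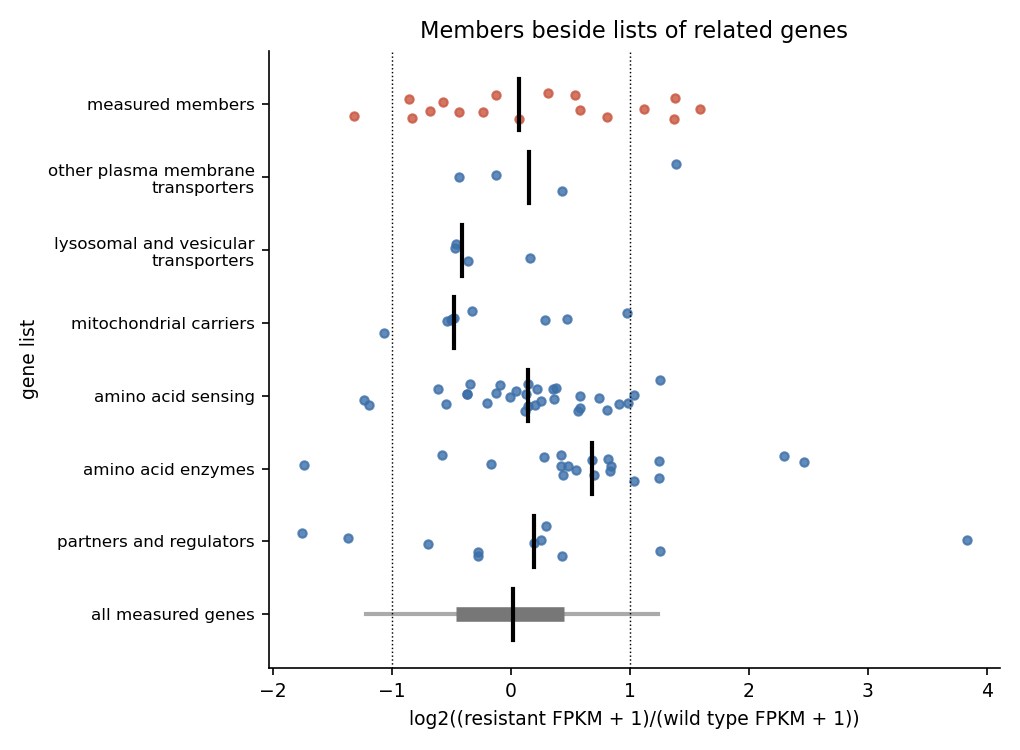
Log2 ratio of the 17 measured members (red) and of the measured genes of 6 related lists (blue), each point a gene and each black bar a median. The lowest row shows all measured genes as the central 50% (thick) and 90% (thin), and dotted lines mark 2-fold. The enzyme list has the highest median, 0.68, and the lists were chosen with earlier results of these data known.

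As a check of the cell type, 6 of 7 ductal epithelial markers were measured, summing to 3853 FPKM in wild type and 5523 FPKM in resistant cells, most of it keratins. Other markers of that list stood lower in resistant cells: Sox9 at 8.19 and 1.88 FPKM and Cdh1 at 206.5 and 164.1 FPKM. Epcam was not measured, at 0.21 and 0.10 FPKM. All 5 islet markers were listed at 0 in both libraries, and acinar markers summed to 4.38 and 1.55 FPKM, nearly all of it Cela1. Leukocyte markers summed to 1.59 FPKM in wild type and 7.24 FPKM in resistant cells, mostly Cd68 and Lyz2, with Ptprc, the pan-leukocyte marker, listed at 0 and at 0.23 FPKM. Those leukocyte markers stood higher in the same library as Slc7a11, Slc7a5, Slc1a4 and Slc3a2, and their part in these differences was not tested.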

How the data were processed

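The deposited table holds 1 row per Ensembl gene and a value for each of 2 libraries, with no named unit. Values were taken to be FPKM computed by the authors: they are not whole, sum to 998508 (wild type) and 1197279 (resistant), and low values of single-transcript genes, times length less 160 bases, came within 0.1 of whole fragments in 94.1% and 94.4% of cases, 1 fragment at 1 kb being 0.0424 and 0.0439 FPKM. The 160 bases and the values of 1 fragment were those that made these shares highest, so the shares are no separate test of the unit. The submitters' processing notes name HISAT2, StringTie and GRCm38, with no role or version. Per the file headers the authors also give a log2 fold change, a test score, a p-value and a q-value.

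Rows of 1 symbol were summed, and 13 rows marked as failed or too deep, no member among them, were left out. The measure was log2 of resistant FPKM + 1 over wild type FPKM + 1, which makes differences of low genes look smaller, and 1 or more in size counted as 2-fold. Counting intervals (exact Poisson for a value, exact binomial for a ratio, 95%) used fragments on the longest GENCODE M21 transcript; a shorter expressed transcript would give fewer. All measured members are named. From other lists, up to 4 genes per direction that were at least 2-fold apart are named. Oat, beyond those 4, and genes within 2-fold, for their role, are named after their values were seen. Members and lists were chosen with earlier results of these data known. The list symbol Slc66a1 was not matched, though its older symbol Pqlc2 was. Alternatives were pseudocounts of 0.1 and 5, no filter, a filter of 5 FPKM, all rows kept, the highest row for each symbol in place of the sum, rescaling by median or upper quartile and a fold threshold of 4. Software was Python 3.11.15 (numpy 2.4.6, pandas 2.3.3, scipy 1.17.1; figures with matplotlib 3.10.9).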

Additional observations from a re-analysis of the deposited data

How the results depend on the processing

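With 1 library per group no error between cultures could be had, and low members rest on few fragments. The count of 4 members at least 2-fold higher stayed at 4, and the same 4 genes, in 7 of the 9 alternatives. Across those 7 the background ran from 3.51% of all genes tested (pseudocount of 5) to 7.91% (highest row for each symbol). The members tested ran from 11 (filter of 5 FPKM) to 31 (no filter, background 4.45%). The count was 5 at a pseudocount of 0.1, with Slc36a4 added (background 10.8% of all measured genes), and 0 at a fold threshold of 4 (background 1.80%). The count of 1 lower member was 3 at a pseudocount of 0.1, with Slc36a1 and Slc7a4 added (background 12.7%), and 0 at a pseudocount of 5 (background 2.44%), at a filter of 5 FPKM (7.84%) and at a fold threshold of 4 (1.05%). The median log2 ratio of 0.06 was 0.54 at a filter of 5 FPKM, which leaves 11 members. It was -0.01 after rescaling to the same upper quartile, which shifted the median of all genes by -0.08. Slc38a7 is the middle measured member, so the change of the members' median is its own change of sign (0.06 to -0.01). No other member changed sign. No paired analysis was possible because each group has 1 library.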
